A study of Mus musculus with 20 samples.

Results

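The replication-dependent histone genes are the 65 protein-coding mouse genes named Hist1h, Hist2h, Hist3h and Hist4h, together with any under the newer H1f, H2ac, H2bc, H3c and H4c names, that reached a normalised read count of 10 in at least 5 of 20 mammary tumour libraries. They were picked by gene symbol and by that level from 67 candidates, with earlier results of these data known. They are 65 of 19876 genes tested and of 38996 genes named. The class sizes were 6 genes for H1, 17 for H2A, 17 for H2B, 12 for H3 and 13 for H4. By cluster, 52 are Hist1 genes on chromosome 13, 10 are Hist2 genes on chromosome 3, 2 are Hist3 genes on chromosome 11 and 1 is the Hist4 gene on chromosome 6. Of the 65 genes, 57 were at 10 or more in all 20 libraries. The candidates left out were Hist1h2aa, which reached 10 in none, and Hist1h2ba, which reached 10 in 3, and the genes just inside were Hist1h1t, Hist1h2ap and Hist1h2br, each at 10 or more in 6 libraries.

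Bulk RNA was sequenced from tumours of SSM3, an oestrogen receptor-positive mouse mammary tumour line, grown in a mammary gland of immunocompetent 129S6/SvEv mice aged 2 to 4 months. The study asked how letrozole, which blocks oestrogen synthesis, and anti-PD-1, an antibody to a receptor that restrains T cells, affect transcription. There were 4 groups of 5 tumours, which the design text describes as biological replicates. The letrozole + anti-PD-1 group had an ovariectomy, 1 mg/kg letrozole under the skin each day for 25 days, and 250 ug of anti-PD-1 on days 3, 5 and 7 after surgery. The letrozole group had the ovariectomy and letrozole, and the anti-PD-1 group had a sham operation, 5% ethanol in saline each day and the antibody. The vehicle group had the sham operation and 5% ethanol in saline. No group had the drug or the ovariectomy alone, so their effects cannot be told apart, and "letrozole" stands for both of them. All 4 groups carried the same tumour line. The recorded ethanol share of the injections, 5%, was the same in all of them, the letrozole-treated groups included.

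Replication-dependent histones are made in S phase to package newly copied DNA. H2A, H2B, H3 and H4 form the nucleosome core, and H1 is the linker histone that binds the DNA between cores. Their genes are clustered and mostly lack introns, and their mRNAs end in a conserved stem-loop instead of a poly(A) tail. The stem-loop is bound by Slbp, the stem-loop binding protein, and is the site from which the mRNA is degraded when DNA synthesis stops. The transcript is cut just after the stem-loop by a complex that holds the U7 snRNP proteins Lsm10 and Lsm11. Transcription at the clusters depends on Npat, a cyclin E-Cdk2 substrate.

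The stem-loop that gives these genes their shared mRNA end was found in the annotated transcript of 46 of the 65 members, and its stem set the H4 genes apart in letters. The windows are shown for the genes the results turn on and for the stem types, 5′ to 3′ as DNA letters of the transcript, with the 16 bases of stem and loop in capitals. Sequences are from the GENCODE vM21 transcripts (GRCm38).
Hist1h2bk (H2B, chromosome 13): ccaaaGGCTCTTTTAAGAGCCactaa
Hist1h2ab (H2A, chromosome 13): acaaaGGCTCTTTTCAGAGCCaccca
Hist1h2be (H2B, chromosome 13): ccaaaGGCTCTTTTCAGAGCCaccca
Hist1h3d (H3, chromosome 13): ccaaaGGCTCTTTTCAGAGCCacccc
Hist1h1c (H1, chromosome 13): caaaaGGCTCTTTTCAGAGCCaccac
Hist2h2ac (H2A, chromosome 3): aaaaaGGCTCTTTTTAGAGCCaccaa
Hist1h4f (H4, chromosome 13): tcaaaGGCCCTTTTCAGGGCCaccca
Hist1h4b (H4, chromosome 13): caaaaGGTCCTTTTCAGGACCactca
The form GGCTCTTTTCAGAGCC was the commonest, in 26 members, and Hist1h2bk was among the 6 with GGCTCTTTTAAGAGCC. All 34 stem-loops of H1, H2A, H2B and H3 genes opened with GGCTC. None of the 12 H4 stem-loops did, since 10 opened with GGCCC and 2 with GGTCC. The annotated transcript ended within 100 bases of the stem-loop for 23 members and ran on for more than 100 bases past it for 23, by 1861 bases in Hist1h2be. For the other 19 members the annotated transcript held no such sequence. Some of these transcripts are annotated short, such as 312 bases for Hist1h4k and 381 for Hist1h2bl. A missing match is therefore not shown to be a missing stem-loop.

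Upstream of the start sites, RefSeq promoter windows (GRCm38.p6) of 250 bases before to 50 bases after the start were matched to 59 of the 65 members, with 60 windows in all. Each was searched on both strands for CCAAT, the box bound by NF-Y, for TATAAA, the TATA box, and for ATTTGCAT, the octamer bound by POU-domain factors. The 110 bases before the start are shown for 3 genes whose levels fell under letrozole (below) and for Hist2h2ab, whose level differed little, with matches in capitals on either strand (ATTGG is CCAAT on the opposite strand).
Hist1h2bk, chr13:22035711-22035820, strand +: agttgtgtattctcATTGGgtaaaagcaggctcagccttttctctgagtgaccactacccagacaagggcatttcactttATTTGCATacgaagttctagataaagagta
Hist1h2ab, chr13:23750978-23751087, strand +: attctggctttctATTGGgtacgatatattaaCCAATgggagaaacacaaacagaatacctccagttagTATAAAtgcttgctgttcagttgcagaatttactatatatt
Hist1h4b, chr13:23756827-23756936, strand +: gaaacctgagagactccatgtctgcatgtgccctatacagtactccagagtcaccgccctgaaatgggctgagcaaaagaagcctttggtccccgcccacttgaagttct
Hist2h2ab, chr3:96219775-96219884, strand +: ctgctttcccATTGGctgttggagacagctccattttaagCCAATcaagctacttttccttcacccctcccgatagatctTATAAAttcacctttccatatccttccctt
CCAAT was in 51 of 60 member windows (85%), against 37.4% of all 32851 windows in the table. All windows of H1, H2A, H2B and H3 genes held it, but only 3 of 12 of the H4 windows. ATTTGCAT was in 12 of 60 member windows (20%), against 1.74% of all windows, and these were 6 of 16 H2A and 6 of 16 H2B windows. TATAAA was in 33 of 60 (55%), against 13.6% of all windows. Members share sequence and neighbouring H2A and H2B genes share a promoter region, so these windows are not independent. A match is a run of letters and not a measured binding site.

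Depth ranged from 12497282 reads in anti-PD-1 replicate 1 to 31387527 reads, counted on 1 transcript per gene, and the correlation of log2 levels between libraries of a group was 0.89 to 0.96. Epithelial identity was checked with 8 luminal markers (Krt8, Krt18, Krt19, Epcam, Cdh1, Esr1, Gata3 and Foxa1), which were all above the filter and whose summed level was 265398 to 320807 in letrozole-treated tumours and 238057 to 330421 in the others. Earlier analysis of the same libraries had found vehicle replicate 3 and anti-PD-1 replicate 1 to stand apart. In histone level anti-PD-1 replicate 1 was the highest of the 20 tumours, with 147876 normalised counts over the 65 genes against 52794 to 109342 in the other 19. Vehicle replicate 3 was the lowest vehicle tumour, at 73234. Results that these libraries move are given with and without them.

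Levels of the members spanned a wide range. Hist1h1d averaged 13996 normalised counts over 20 tumours and Hist1h1t, the testis linker histone, averaged 6.83, and 53 of 65 members averaged 100 or more. Per kilobase of annotated transcript, the scale on which genes of different length can be set side by side, the linker histone gene Hist1h1c led with 7982 counts per kb. Hist2h2bb (H2B) had 7879.7 counts per kb, Hist1h4b (H4) 7558, Hist1h2af (H2A) 6471, Hist1h2ak (H2A) 5856, Hist1h3c (H3) 2872 and Hist1h3e (H3) 2857. Hist1h4d (H4) had 3166 and Hist1h2bc (H2B) 872, while Hist1h1d had 1885 counts per kb over an annotated transcript of 7425 bases. Another gene on the same strand covers 59.3% of the exon bases of Hist2h2bb. Histone genes are near copies of one another: the median member shared 52.3% of its 50-base words with another gene and only 13 shared under 20%, so reads could be divided between members. The sources used here do not say whether poly(A)-tailed RNA was selected, so the levels are not read as total histone mRNA.

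Letrozole-treated tumours had lower levels of replication-dependent histone transcripts. With the letrozole difference averaged over both antibody arms (letrozole + anti-PD-1 and letrozole, 10 tumours, against anti-PD-1 and vehicle, 10 tumours), 61 of 65 members were lower and 15 fell at an adjusted p under 0.05 in limma, adjusted over all 19876 genes tested. No member rose at that threshold. Over all genes, 3.72% fell and 3.28% rose by the same rule, 7% in all. The median log2 difference of the members was -0.39, against 0.03 for all tested genes, and 36 members were lower at an unadjusted p under 0.05 (10.6% of all genes) and 0 higher. Differences here and below are on the log2(normalised count + 1) scale, treated minus not treated. In bulk tumours fewer cells in S phase and less histone RNA per cell cannot be told apart. The calls were 3 H2A genes (Hist1h2ab, Hist1h2af and Hist1h2ai), 5 H2B genes (Hist1h2be, Hist1h2bj, Hist1h2bk, Hist1h2bl and Hist1h2bm), 4 H3 genes (Hist1h3b, Hist1h3c, Hist1h3d and Hist1h3e) and 3 H4 genes (Hist1h4b, Hist1h4d and Hist1h4f). All 15 lie in the Hist1 cluster, were at 10 or more in every library and averaged over 100 normalised counts.

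**Figure D1:**
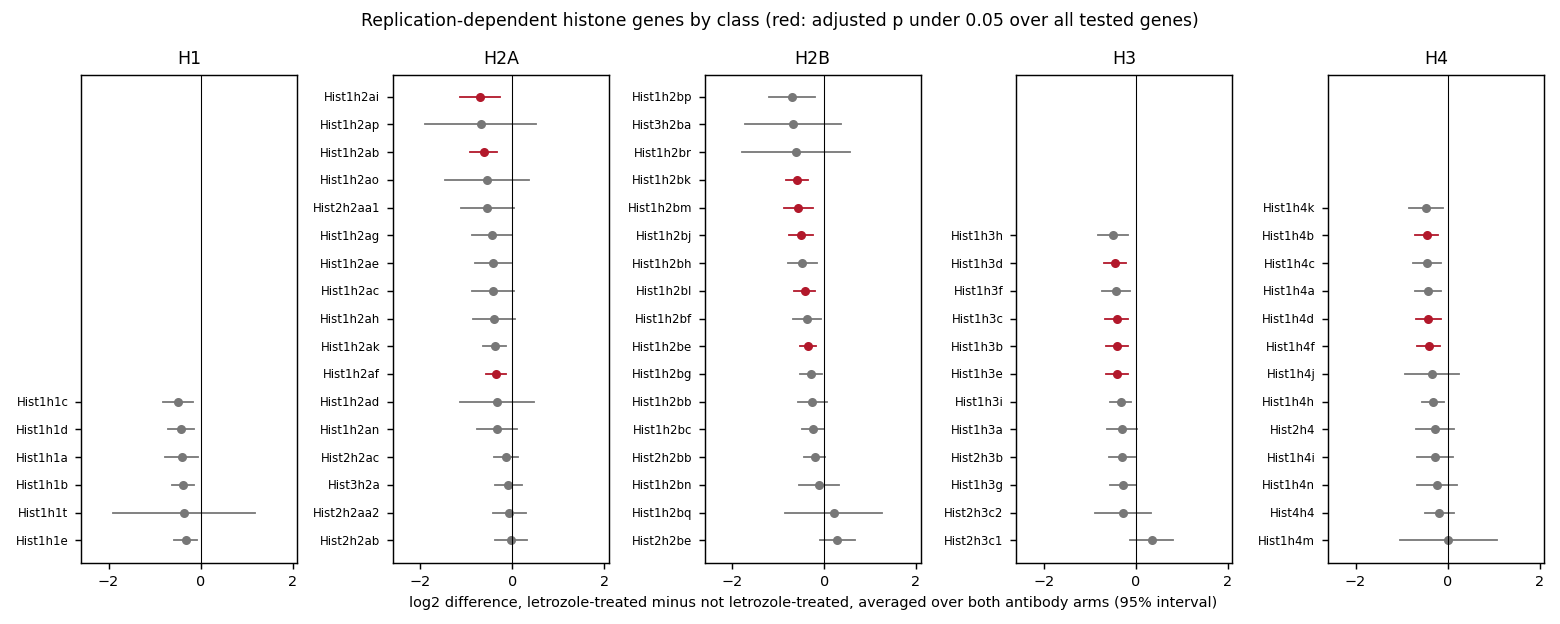
Log2 difference of each of the 65 histone genes, letrozole-treated minus not letrozole-treated, averaged over both antibody arms (points, with 95% intervals), by class; red marks adjusted p under 0.05 over all tested genes. The 15 red genes all lie left of 0, as do 61 of 65 in all.

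The H2B gene Hist1h2bk gave the smallest adjusted p of the members. Its normalised counts were 626, 417, 602, 600.4 and 365 in letrozole + anti-PD-1 tumours, against 1051, 820.2, 667, 907 and 826 in anti-PD-1 tumours. In letrozole tumours they were 577, 618, 546, 602 and 518, against 892, 970.1, 583, 715 and 785 in vehicle tumours. All 5 combined-treatment tumours were below all 5 anti-PD-1 tumours, while in the arm without antibody vehicle replicate 3 lay within the letrozole range. The averaged log2 difference was -0.59 ± 0.11 (SE; adjusted p = 0.00417 in limma).

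For Hist1h2ab (H2A), letrozole + anti-PD-1 tumours had 702, 643, 914, 774 and 474 normalised counts, against 1699, 926, 788, 983 and 982 in anti-PD-1 tumours. Letrozole tumours had 592, 888, 639, 663 and 546, against 1179, 974.6, 776, 1035 and 1272 in vehicle tumours. The groups overlapped in both arms, through replicate 3 of the combined treatment and replicate 2 of letrozole at the high end. The averaged difference was -0.62 ± 0.14 (SE; adjusted p = 0.01 in limma).

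For Hist1h3d (H3), letrozole + anti-PD-1 tumours had 1356, 1022, 1376, 1257 and 757 normalised counts, against 1665, 1150.4, 1385, 1659.8 and 1372 in anti-PD-1 tumours. Letrozole tumours had 1105, 1279, 968, 1143 and 924, against 1761, 1794, 1235, 1429.8 and 1801 in vehicle tumours. In the arm without antibody only letrozole replicate 2 exceeded the lowest vehicle tumour, replicate 3. With antibody the groups overlapped, and letrozole + anti-PD-1 replicate 5 was the lowest of all. The averaged difference was -0.45 ± 0.11 (SE; adjusted p = 0.0179 in limma).

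The H4 gene Hist1h4b, whose annotated exon bases overlap a gene on the opposite strand by 56.2%, had 2966, 2370.5, 2775, 2583 and 1892 normalised counts in letrozole + anti-PD-1 tumours, against 5483, 3164, 3046, 3378 and 2611 in anti-PD-1 tumours. It had 2088, 2889.8, 2458, 2741 and 2356 in letrozole tumours, against 3435, 4265, 2694, 3059.5 and 3750.2 in vehicle tumours. The high value of anti-PD-1 replicate 1 stands out in the plot of counts per tumour. The averaged difference was -0.45 ± 0.12 (SE; adjusted p = 0.0255 in limma).

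**Figure D2:**
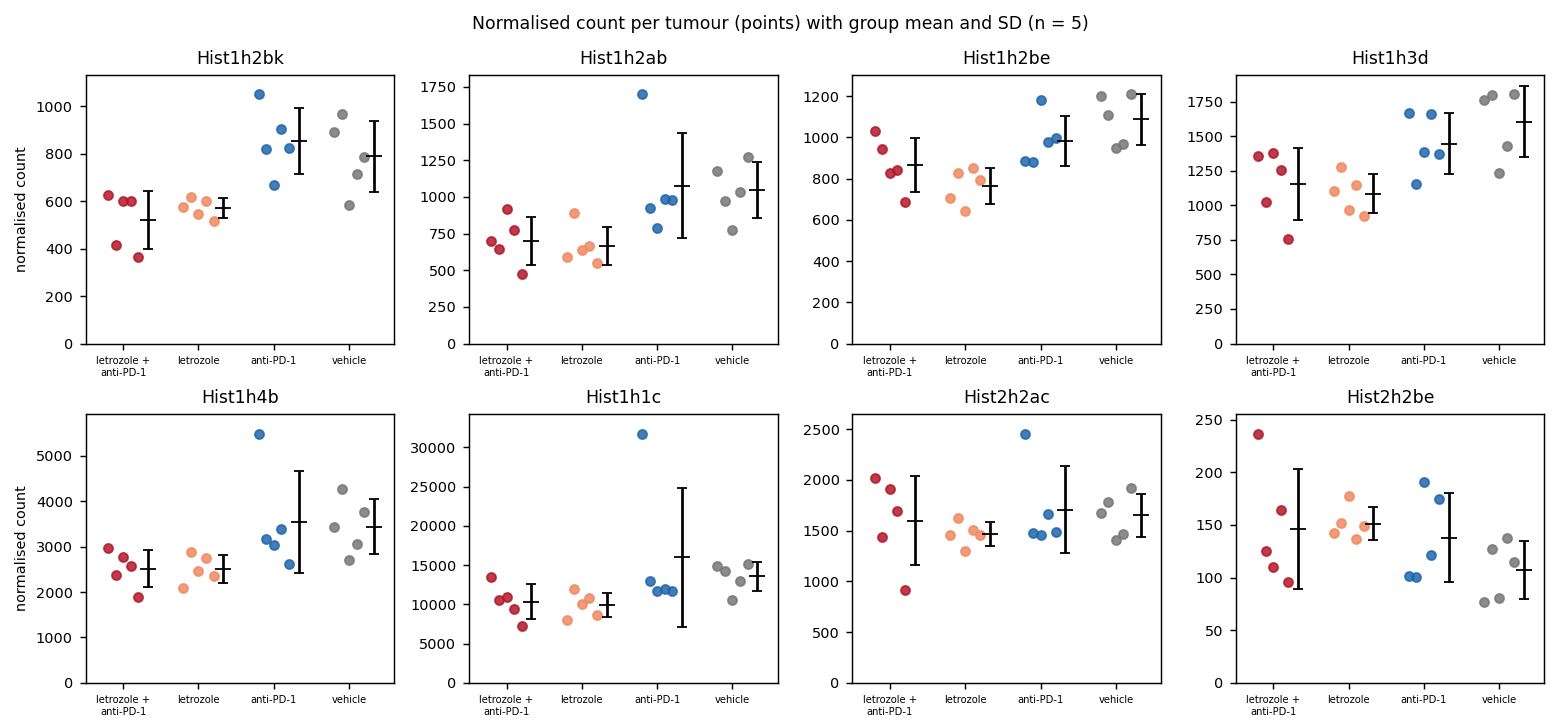
Normalised counts of 8 histone genes in each of 20 tumours (points), with the mean and SD of each group of 5 (black bars); vertical axes start at 0. Hist1h2bk, Hist1h2ab, Hist1h2be, Hist1h3d and Hist1h4b fell in the averaged comparison, while Hist1h1c, Hist2h2ac and Hist2h2be did not pass the threshold.

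The other 11 called genes had averaged differences of -0.71 (Hist1h2ai) to -0.35 (Hist1h2be), with adjusted p of 0.0164 (Hist1h2be) to 0.0489 (Hist1h4d) in limma. Hist1h2bj (H2B) averaged 322 ± 65.5 normalised counts with letrozole + anti-PD-1 against 439 ± 45.3 with anti-PD-1 (SD, n = 5 each), and 298 ± 48.5 with letrozole against 434 ± 99.0 with vehicle. Called in each of the 30 alternative analyses were 5 of the 15 genes: Hist1h2ab, Hist1h2be, Hist1h2bj, Hist1h2bk and Hist1h3d. Hist1h4b was lost in 2 of them, and Hist1h2ai, Hist1h4d and Hist1h4f in 17 each. The count of 15 rests on several libraries: it was 5 without vehicle replicate 2, 6 without vehicle replicate 1, vehicle replicate 5 or letrozole + anti-PD-1 replicate 5, and 7 without letrozole replicate 1 or 3. It was 8 without letrozole replicate 5 or letrozole + anti-PD-1 replicate 2, 9 without anti-PD-1 replicate 4 and 10 without letrozole replicate 4 or letrozole + anti-PD-1 replicate 4. Leaving out vehicle replicate 3 gave 24, leaving out anti-PD-1 replicate 1 gave 11, and leaving out both gave 23, among them all 15. Calls over all genes moved as well, over 934 to 2329 on leaving out single tumours, against 1391 with all libraries.

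No linker histone gene passed the threshold in limma with all libraries. All 6 were lower in the averaged comparison, 5 of them at an unadjusted p under 0.05. Hist1h1c had 13491, 10588, 10966, 9417 and 7273 normalised counts in letrozole + anti-PD-1 tumours, against 31738, 12918, 11642, 11917 and 11663 in anti-PD-1 tumours. It had 8066, 11981, 10092, 10796 and 8683 in letrozole tumours, against 14856, 14308, 10588, 12943 and 15125 in vehicle tumours. Groups overlapped in both arms, and anti-PD-1 replicate 1 had more than any other tumour. The averaged difference was -0.49 ± 0.16 for Hist1h1c (SE; adjusted p = 0.0669 in limma). It was -0.41 for Hist1h1a, -0.38 for Hist1h1b, -0.42 for Hist1h1d and -0.33 for Hist1h1e, with adjusted p of 0.0554 to 0.153 in limma. Of the 30 alternatives, 6 called Hist1h1b, 5 Hist1h1d, 4 Hist1h1c and 4 Hist1h1e, all 4 being called without vehicle replicate 3 and without both libraries that stand apart. Hist1h1t, at -0.37 ± 0.74, was too low to measure a difference of this size.

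By class the median averaged difference was -0.40 for H1, -0.41 for H2A, -0.37 for H2B, -0.37 for H3 and -0.34 for H4. By cluster it was -0.41 for the 52 Hist1 genes, 50 of which were lower, and -0.18 for the 13 genes of Hist2 to Hist4, 11 of which were lower and none called. The difference between clusters was not tested. The highest differences were those of Hist2h3c1 (H3), at 0.34 ± 0.23, and Hist2h2be (H2B), at 0.29 ± 0.18 (SE; adjusted p = 0.386 and 0.351 in limma). Hist2h3c1 lies wholly within a gene on the same strand. Hist2h2be had 236, 125, 109.8, 164 and 95.3 normalised counts in letrozole + anti-PD-1 tumours, against 102, 101, 191, 122 and 175 in anti-PD-1 tumours. It had 143, 152, 177, 137 and 148 in letrozole tumours, against 76.9, 127, 80.5, 138 and 115 in vehicle tumours, where only vehicle replicate 4 entered the letrozole range. Along chromosome 13 the matched Hist1 start sites form 2 separate stretches, from 21716134 to 22043247 and from 23530794 to 23763717 (GRCm38.p6). In the first, 20 of 22 members were lower and 5 called (median -0.42), and in the second 26 of 26 were lower and 10 called (median -0.41). The median was -0.41 where the annotated transcript ended within 100 bases of the stem-loop, -0.41 where it ran further and -0.36 where no stem-loop was found. It was -0.41 for the 11 genes with ATTTGCAT upstream and -0.41 for the 47 without it, leaving out Hist1h2be, which matched 2 windows. For the 13 members with under 20% shared words it was -0.41, with 12 lower and 2 called.

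Without antibody, 61 of 65 members were lower in letrozole than in vehicle tumours, with a median log2 difference of -0.44 against 0.03 for all tested genes. Just 1 passed the threshold, Hist1h2be (H2B), beside 0.548% of all genes that fell and 0.402% that rose (0.951% in either direction). Its normalised counts were 704, 826, 643, 851 and 791 in letrozole tumours, against 1201, 1106, 949, 968 and 1208 in vehicle tumours. The groups did not overlap, and the difference was -0.51 ± 0.12 (SE; adjusted p = 0.0458 in limma). Of the exon bases of Hist1h2be, 8.3% also belong to Hist1h1e or Gm11398, which run the same way. A further 21 members were lower at an unadjusted p under 0.05 (6.51% of all genes were), among them Hist1h3d at -0.56 ± 0.16 and Hist1h2bm (H2B) at -0.72 ± 0.21 (adjusted p = 0.105 and 0.114 in limma), and none was higher. The 4 higher members were Hist2h2be at 0.52, Hist2h3c1 at 0.39, Hist1h2bq at 0.21 and Hist2h2ab at 0.08, with adjusted p of 0.369 to 0.934. Calls over all genes ranged over 85 to 805 on leaving out single tumours, against 189 with all libraries. The members' count of 1 moved with single libraries too. It was 7 without vehicle replicate 3, 2 without anti-PD-1 replicate 1, 15 without both, and 0 without any 1 of the 5 letrozole tumours, of vehicle replicates 1, 2, 4 and 5, of anti-PD-1 replicates 2, 4 and 5, and of letrozole + anti-PD-1 replicates 2 and 4.

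With antibody in both groups, 57 of 65 members were lower in letrozole + anti-PD-1 than in anti-PD-1 tumours, with a median difference of -0.31 against 0.03 for all tested genes. The 1 call was Hist1h2bk, beside 0.594% of all genes that fell and 0.478% that rose (1.07% in either direction), with a difference of -0.73 ± 0.16 (SE; adjusted p = 0.0327 in limma). A further 16 members were lower at an unadjusted p under 0.05 (6.67% of all genes were) and none was higher. Without letrozole + anti-PD-1 replicate 5 the median was -0.16, with 7 members in all at that threshold, and without anti-PD-1 replicate 1 it was -0.21, with 8. Next by p were Hist1h2ab at -0.60 ± 0.20 and Hist1h4a (H4) at -0.57 ± 0.19 (adjusted p = 0.167 and 0.172 in limma). Of the 8 higher members, Hist2h3c1 had 0.29, Hist1h4m 0.33 and Hist1h2bn 0.14. The call was lost without any 1 of anti-PD-1 replicates 1, 2, 4 and 5 and of letrozole + anti-PD-1 replicates 2 and 5, each of which left 0 members called. Calls over all genes ranged over 72 to 263 on leaving out single tumours, against 213 with all libraries. The 2 letrozole comparisons share no tumour, and 56 of 65 members (86.2%) were lower in both, against 31.2% of all tested genes. Among the 53 members that averaged 100 or more it was 50. Members covary between tumours (below), so they are not 65 separate measurements.

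**Figure D3:**
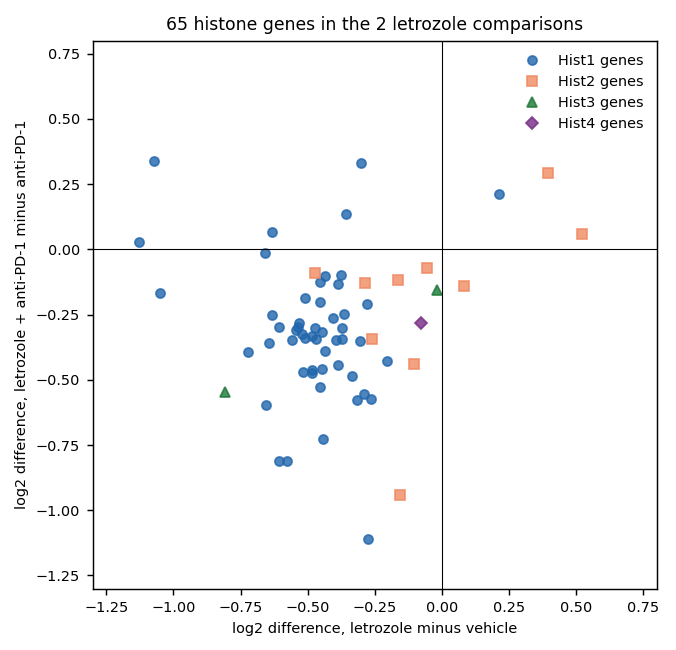
Each point is 1 of 65 histone genes, by its log2 difference in letrozole minus vehicle tumours (horizontal) and in letrozole + anti-PD-1 minus anti-PD-1 tumours (vertical), with shape and colour by cluster. Of the 65 points, 56 lie in the lower left, where both differences are below 0, and 3 lie in the upper right.

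Anti-PD-1 left no member past the threshold. In anti-PD-1 against vehicle tumours 33 members were higher and 32 lower, with a median of 0.01. That even split rests on single libraries: 49 were lower without anti-PD-1 replicate 1 (median -0.09), 44 without vehicle replicate 3 (median -0.08) and 52 without both (median -0.16). With all libraries limma called 0 members and 0% of all genes. At an unadjusted p under 0.05 there was 1 lower member, beside 1.37% of all genes lower, Hist1h3g (H3) at -0.51 ± 0.20 (SE; adjusted p = 1 in limma), and edgeR and DESeq2 also called 0 members. Hist1h3g had 328, 179.8, 293, 287 and 215 normalised counts in anti-PD-1 tumours, against 453, 359, 302, 329.5 and 383 in vehicle tumours, with anti-PD-1 replicate 1 inside the vehicle range. Next by p among lower members were Hist1h4i at -0.46 and Hist1h2bc at -0.21, and first among higher ones were Hist1h4h at 0.26, Hist2h2aa1 at 0.62 and Hist2h4 at 0.41. Without anti-PD-1 replicate 1 these higher values were 0.11 for Hist1h4h, 0.44 for Hist2h2aa1 and 0.11 for Hist2h4. In letrozole + anti-PD-1 against letrozole tumours 45 members were higher and 20 lower, with a median of 0.07. This direction too rests on single tumours: 38 were lower without letrozole + anti-PD-1 replicate 1 (median -0.02), 30 without letrozole + anti-PD-1 replicate 3 (median 0.01), 8 without letrozole + anti-PD-1 replicate 5 (median 0.24), 12 without letrozole replicate 2 (median 0.12) and 28 without letrozole replicate 1 (median 0.04). With all libraries limma, edgeR and DESeq2 called 0 (0% of all genes in limma, and 0 members at an unadjusted p under 0.05). First by p were Hist1h2br at 1.32, Hist1h2be at 0.18 and Hist2h2bb at 0.22 on the higher side, and Hist1h2bk at -0.16, Hist2h3c1 at -0.28 and Hist1h2bc at -0.14 on the lower. Hist1h2br lies near the floor, at a mean of 8.44 normalised counts over all tumours and 0 in letrozole replicates 3 and 5. In letrozole + anti-PD-1 against vehicle tumours 59 members were lower, with a median of -0.34, and 50 were lower without letrozole + anti-PD-1 replicate 5, with a median of -0.18. There limma called 0 members beside 0.719% of all genes lower and 0.458% higher (1.18% in either direction), 18 members were lower at an unadjusted p under 0.05 (7.07% of all genes), edgeR called 0 and DESeq2 1. Of the 6 higher members Hist2h2be was at 0.40, Hist1h2bq at 0.55 and Hist2h2aa2 at 0.15, and of the lower Hist1h3d was at -0.49 and Hist1h2ab at -0.59. The smallest adjusted p was 0.0752 for Hist1h2bk, and leaving out vehicle replicate 3 gave 2 calls and leaving out both libraries that stand apart gave 6. Calls over all genes ranged over 122 to 697 on leaving out single tumours, against 234 with all libraries.

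The letrozole difference was not shown to depend on the antibody. The interaction called 0 members and 0% of all genes in limma, edgeR and DESeq2 called 0 members, and 1 member, Hist1h3g, had an unadjusted p under 0.05, at 0.70 ± 0.28 (SE; adjusted p = 1). For Hist1h2be the interaction was 0.32, with a 95% interval of -0.03 to 0.68, and for Hist1h2bk it was -0.28, with an interval of -0.76 to 0.20. It was 0.33 for Hist1h2bg, -0.78 for Hist2h2aa1 and -0.47 for Hist2h2be. Neither of these intervals excludes 0, so the different single calls of the arms do not show a difference between them.

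Summed histone levels overlapped between treated and untreated tumours. The sums were 100641, 73152, 87258, 74034 and 52794 normalised counts in letrozole + anti-PD-1 tumours, against 147876, 88208, 87941, 93759.9 and 84541 in anti-PD-1 tumours. They were 64179, 85761, 68926, 73407 and 63508 in letrozole tumours, against 99870.1, 109342, 73234, 90803 and 104308 in vehicle tumours. Letrozole + anti-PD-1 replicate 1 was above 4 of the 5 anti-PD-1 tumours, and letrozole replicates 2 and 4 were above vehicle replicate 3. The mean of log2 levels over members, in which each gene weighs the same, was 8.42 ± 0.39 with letrozole + anti-PD-1 against 8.72 ± 0.23 with anti-PD-1, and 8.33 ± 0.17 with letrozole against 8.74 ± 0.22 with vehicle (SD, n = 5 each). The lowest tumour, letrozole + anti-PD-1 replicate 5, was at 7.80. Anti-PD-1 replicate 1, the library with the fewest reads, had H1 transcripts at 54.5% of its histone counts, against 46.1% to 51.1% in the other 19, and without it the anti-PD-1 sum averaged 88612 ± 3816 (SD, n = 4).

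Within groups the members covaried. Over 20 tumours, as deviations from the group means, the median Pearson correlation of the 1378 pairs among the 53 genes that averaged 100 or more was 0.56, and 96.7% of pairs were above 0. It was 0.86 among 5 H1 genes, 0.72 among 10 H3 genes, 0.57 among 11 H4 genes, 0.56 among 12 H2B genes and 0.53 among 15 H2A genes. These pairs share the library, its depth and, for many, sequence. The gene with the highest mean correlation with the others was Hist2h2ac (0.68), and the lowest were Hist1h4n (0.14), Hist1h4i (0.16) and Hist2h2be (0.18).

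**Figure D4:**
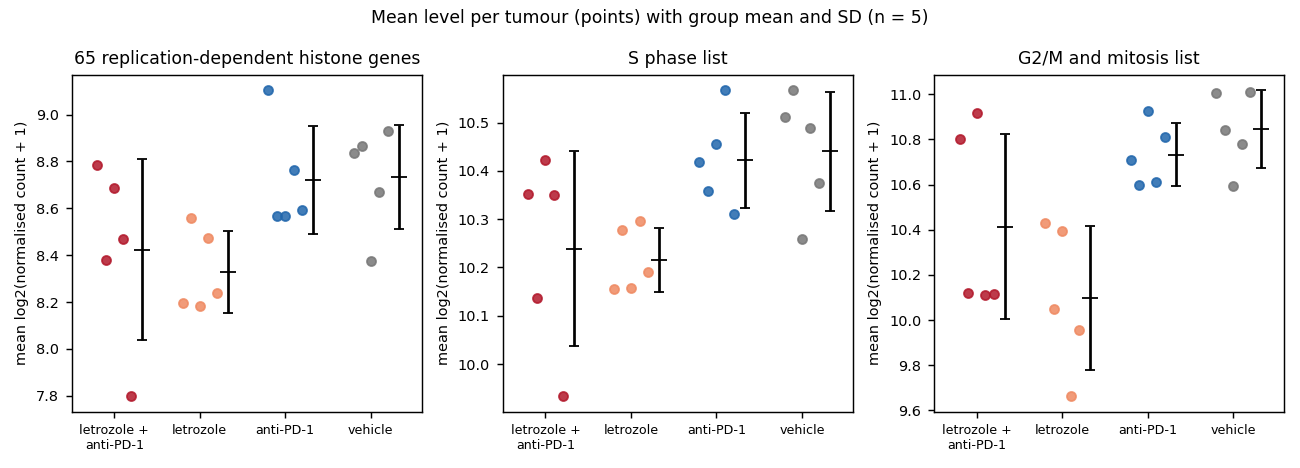
Mean of log2(normalised count + 1) per tumour (points) over the 65 histone genes, over 30 S phase genes and over 22 G2/M and mitosis genes, with group mean and SD (black bars, n = 5); vertical axes do not start at 0. Means of the letrozole-treated groups lie below those of the others in all 3 panels, and anti-PD-1 replicate 1 is the highest tumour in the histone panel only.

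Some genes of DNA replication and most of the mitosis genes examined fell in the averaged comparison, in which 3.72% of all tested genes fell and 3.28% rose. Of 30 S phase genes, 6 fell and 0 rose in the averaged comparison: Ccne1 (cyclin E1), Cdt1 (a replication licensing factor), Mcm3 and Mcm5 (subunits of the replicative helicase), Rfc4 (a clamp loader subunit) and Rrm1 (a ribonucleotide reductase subunit). Their list median was -0.22. Cdt1 fell most, by 0.52 on the log2 scale (SE 0.08; adjusted p = 0.000716 in limma), and Mcm5 by 0.42 (SE 0.09; adjusted p = 0.00948). Of 22 G2/M and mitosis genes, 16 fell and 0 rose, with a median of -0.54. They were Aurkb, Birc5, Bub1, Bub1b, Ccnb1, Ccnb2, Cdc20, Cdk1, Kif11, Kif20a, Plk1, Prc1, Top2a, Tpx2, Ttk and Ube2c, with Kif20a, a mitotic kinesin, lowest in p at -0.62 ± 0.11 (SE; adjusted p = 0.00157 in limma). Mki67, a proliferation marker, was at -0.47 ± 0.17 and did not pass (adjusted p = 0.0879 in limma). The G2/M median was -0.72 in letrozole against vehicle, with 6 of 22 called, beside 0.548% of all genes that fell. It was -0.34 in letrozole + anti-PD-1 against anti-PD-1, with 0 called, beside 0.594% of all genes that fell. There 3 were at an unadjusted p under 0.05, where 6.67% of all genes were lower and 6.78% higher. Per tumour, the mean log2 level of the S phase list was 10.23 ± 0.14 in letrozole-treated and 10.43 ± 0.11 in other tumours, and that of the G2/M list 10.26 ± 0.39 in letrozole-treated and 10.79 ± 0.16 in other tumours (SD, n = 10 each). In analyses added after the data were seen, the averaged counts were 6 S phase and 19 G2/M genes without both libraries that stand apart, and 4 to 7 and 12 to 20 on leaving out single tumours. The 6 G2/M genes called in letrozole against vehicle became 14 without vehicle replicate 3, 1 without vehicle replicate 1 and 17 without both libraries, over a range of 1 to 14 on leaving out single tumours. The part of proliferation in the histone difference was not tested.

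Among factors that make and process histone mRNA, Slbp and Npat differed little between treated and untreated tumours. Slbp averaged 707 ± 147 normalised counts with letrozole + anti-PD-1 against 709 ± 30.8 with anti-PD-1, and 681 ± 60.5 with letrozole against 664 ± 50.4 with vehicle (SD, n = 5 each), and its averaged difference was 0.0031 ± 0.08 (SE; 95% interval -0.17 to 0.18). Npat was at -0.02 ± 0.09 (SE; 95% interval -0.21 to 0.18). Of the 22 genes on this list 3 fell and 0 rose: Upf1, an RNA helicase of histone mRNA decay, at -0.30 ± 0.06 (SE; adjusted p = 0.0042 in limma), Eri1, an exonuclease that trims the stem-loop end, at -0.31 ± 0.08 (adjusted p = 0.025), and Ccne1, also on the S phase list. The list median was -0.12, and 3.72% of all tested genes fell in the averaged comparison. Its count of 3 was 8 without vehicle replicate 3, 7 without both libraries that stand apart and 1 to 8 on leaving out single tumours. Upf1 was also called in letrozole + anti-PD-1 against anti-PD-1, at -0.42 ± 0.08 (adjusted p = 0.0169 in limma), a call lost without anti-PD-1 replicate 4 or letrozole + anti-PD-1 replicate 5.

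Of 17 histone chaperone genes, 4 fell and 0 rose in the averaged comparison. They were Rbbp7, a histone-binding protein of chromatin assembly and modifying complexes, at -0.58 ± 0.11 (SE; adjusted p = 0.00363 in limma), Asf1b, an H3-H4 chaperone of dividing cells, at -0.55 ± 0.13 (adjusted p = 0.0112), Nap1l1 at -0.31 ± 0.08 and Npm1 at -0.39 ± 0.11. Their list median was -0.11, and 3.72% of all tested genes fell in that comparison. Of 11 replication-independent histone variants, which are made outside S phase or throughout the cell cycle, 1 fell and 0 rose, with a median of -0.12. It was Cenpa, the centromeric H3 variant, at -0.57 ± 0.17 (SE; adjusted p = 0.044 in limma). On leaving out single tumours 0 to 3 variants were called, with 0 without anti-PD-1 replicate 1 among others. The H3.3 genes H3f3a and H3f3b were at 0.05 ± 0.06 and 0.09 ± 0.07. Of 5 members listed as polyadenylated in differentiated cells, Hist1h2bk fell and Hist2h2be was at 0.29. Hist1h1c, Hist1h2ac and Hist1h2bc were at -0.49, -0.42 and -0.24. Polyadenylation was not measured here, and the annotated Hist1h2bk transcript ends 30 bases after the stem-loop. The differences between these lists and the histone genes were not tested.

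Markers of the other cell types a tumour can hold varied widely between tumours, and their ranges overlapped between treated and untreated tumours. In the averaged comparison 10 of 10 macrophage, 11 of 12 fibroblast, 8 of 9 T cell, 6 of 6 endothelial, 6 of 8 adipocyte, 9 of 9 skeletal muscle, 7 of 7 basal and 2 of 2 B and plasma cell markers were higher, and none of these was called. The macrophage differences were 0.60 (Csf1r) to 1.03 (Cd163). All macrophage markers but Cd163, Csf1r and Mrc1 had an unadjusted p under 0.05 in limma (12.3% of all genes were higher at that threshold). Some markers of other lists were also higher at that threshold, with larger differences for basal and muscle genes. The difference was 2.27 for Trp63, 2.12 for Krt5 and 1.52 for Myh11 (basal), and 2.49 for Myh2 and 1.81 for Tnnt3 (muscle). Ckm (muscle), Pecam1 (endothelial), Cd4 (T cell) and Jchain (B and plasma cell) passed it too. The remaining basal and muscle markers did not. Among luminal markers 7 of 8 were higher, and Epcam and Gata3 rose. Summed normalised counts of letrozole-treated against other tumours ranged over 5710.2 to 13622 against 1846 to 19115 for macrophage, 10960.4 to 86553 against 3142 to 75611 for fibroblast, 148 to 534 against 113 to 455 for T cell and 3774 to 6457 against 2069 to 7230.4 for endothelial markers. They ranged over 9.27 to 3702 against 9.30 to 2679 for adipocyte, 38.6 to 2164 against 32.8 to 218 for skeletal muscle, 582 to 18279.5 against 239 to 2379.6 for basal and 13.9 to 181 against 12.4 to 52.0 for B and plasma cell markers. Vehicle replicate 3 gave the upper end of the untreated range for macrophage, fibroblast, endothelial and basal markers. The next highest untreated values were 10442, 48450, 6623 and 1861. Anti-PD-1 replicate 1 gave the upper end for T cell and skeletal muscle markers, with 368 and 101 next. Among the markers below the filter were Cd3g of the T cell list, Cd79a, Cd79b and Ms4a1 of the B and plasma cell list and Myh4 of the muscle list. Their part in the histone difference was not tested.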

How the data were processed

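Bulk RNA of 20 SSM3 tumours was measured, 5 in each of 4 groups taken from the sample labels. Per the labels' protocols, libraries were made with the Swift Rapid kit from 1 ug of total RNA. The submitters' processing notes name STAR 2.7.10a, DESeq2 and GRCm39, and the sources do not state the strand setting or the counting tool. The authors deposited 1 table of signal values, normalised counts of 127442 transcripts. Dividing each library by its smallest step gave whole reads for 100% of values (tolerance 0.001), with size factors of 0.472 to 1.46, so the values are counts divided by a factor per library. Depth was 12497282 to 31387527 reads. The precision of each value is given by its spread over 5 tumours.

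Transcripts were named from GENCODE vM21 (93.289% matched), and each gene was represented by its transcript with the highest total. The 19876 genes at 10 or more in at least 5 libraries were tested with limma 3.58.1 in R 4.3.3. One fit of 4 group means on log2(value + 1), with a trend in the variance and 16 residual degrees of freedom, gave 7 contrasts, each with Benjamini-Hochberg adjustment over all tested genes. The test was checked on simulated counts, drawn independently for each gene with the same dispersion. That check does not cover the covariation of the members or the libraries that stand apart. The members and all gene lists were chosen with earlier results of these data known. The lists were histone variants, histone mRNA transcription and processing, histone chaperones, S phase, G2/M and mitosis, histone genes polyadenylated in differentiated cells, and markers of luminal, basal, fibroblast, adipocyte, muscle, macrophage, T, B and plasma, and endothelial cells. The result of 1 marker is not reported here. Named were all members called in a contrast, or the 3 with the smallest p in each direction where fewer than 3 were called, all H1 genes, the 2 members with the highest mean of each class, list genes that were called, and Slbp, Npat and Mki67. Other genes in the text (such as those named for correlation or sequence) were chosen after their values were seen.

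The alternatives were pseudocounts of 0.5 and 5, no filter, a minimum of 50, centring of each library on its median, sums over transcripts, a replicate block, the groups of the contrast alone, edgeR 4.0.16 and DESeq2 1.42.0 on the recovered reads, and leaving out each library and both libraries that stand apart.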

Additional observations from a re-analysis of the deposited data

Results flagged for a closer look

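In 11 of 168 groups of 5 tumours examined on the log2 scale (each named histone gene, and the means of the 65 genes and of the S phase and G2/M lists, in each group), 1 tumour lay far from the other 4, and chance alone gives about 1 in 20. Anti-PD-1 replicate 1, the library with the fewest reads, was the high tumour in 7 of them. It had 1698.6 normalised counts of Hist1h2ab, against 788 to 983 in the other anti-PD-1 tumours, 4024.2 of Hist1h3e (others 2122 to 2436), 6993.6 of Hist1h4d (others 3327 to 3885) and 3105 of Hist1h4f (others 1766 to 2054). It also had 1563.1 of Hist1h4h (others 879 to 934.5), 31738 of Hist1h1c (others 11642 to 12918) and 15372 of Hist1h1e (others 9739.9 to 10735). Anti-PD-1 replicate 4 was high for Hist1h2bc, at 1107.4, against 953 to 992. Low tumours were letrozole replicate 2 for Hist2h2aa1 at 49.621 (others 96.8 to 112), letrozole replicate 3 for Hist1h3g at 202.14 (others 235 to 247) and letrozole + anti-PD-1 replicate 5 for Hist1h2bg at 396.28 (others 599 to 708).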

How the results depend on the processing

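The direction of the 4 medians of the letrozole comparisons was kept under each alternative run. The median was -0.53 to -0.37 in letrozole against vehicle, -0.41 to -0.16 in letrozole + anti-PD-1 against anti-PD-1, -0.44 to -0.31 in the averaged comparison, and -0.46 to -0.18 in letrozole + anti-PD-1 against vehicle. No member was called higher under any of them. The median turned in anti-PD-1 against vehicle (-0.16 to 0.06) and in letrozole + anti-PD-1 against letrozole (-0.02 to 0.24). The counts of called members moved more. In letrozole against vehicle (1 call) there were 0 without a filter, with median centring, with sums over transcripts and with the replicate block, 2 with the groups of the contrast alone (Hist1h3b and Hist1h3c, with Hist1h2be lost), 8 with DESeq2 and 15 without both libraries that stand apart, and 0 to 7 on leaving out single tumours. In letrozole + anti-PD-1 against anti-PD-1 (1 call) there were 0 without a filter, with centring, with sums and with the groups alone, and 0 to 1 on leaving out single tumours. In the averaged comparison (15 calls) there were 7 without a filter, 9 with sums, 15 with edgeR, 25 with DESeq2 and 23 without both libraries, and 5 to 24 on leaving out single tumours. In letrozole + anti-PD-1 against vehicle (0 calls) there was 1 with DESeq2, 6 without both libraries and 0 to 2 on leaving out single tumours. The cause of these moves was not tested.

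Signs turned for genes with differences near 0 or low levels. In letrozole + anti-PD-1 against vehicle, Hist1h2bq was at -0.00671 to 0.9181 over the 30 alternatives, with its sign turned in 2 of them. Over all alternatives Hist2h2aa2 was at -0.01156 to 0.3263. Hist2h2ab in letrozole against vehicle was at -0.04795 to 0.2087, and Hist1h2bn in letrozole + anti-PD-1 against anti-PD-1 at -0.02693 to 0.3721.

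Over all genes the calls ranged from 85 to 1139 in letrozole against vehicle, 60 to 522 in letrozole + anti-PD-1 against anti-PD-1, 932 to 2457 in the averaged comparison and 120 to 952 in letrozole + anti-PD-1 against vehicle. Same-numbered tumours of different groups had correlations of deviations of -0.34 to 0.20 (median 0.0058), with 3 of 30 over 0.1. Different-numbered tumours had -0.38 to 0.43 (median -0.0028), with 22 of 120 over 0.1. These values showed no pairing by replicate number, and a shared batch was not tested. With the replicate block the averaged comparison had 16 calls, 14 of them among the 15. Depth limits the 8 members under 10 in some libraries, of which Hist1h1t, Hist1h2ap and Hist1h2br reached 10 in only 6.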

Other observations

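Hist1h2al, annotated as a processed pseudogene and so outside the 65 genes, had 6039 ± 1533 normalised counts in letrozole + anti-PD-1 tumours, 5427 ± 369 in letrozole tumours, 8504 ± 3943 in anti-PD-1 tumours and 6563 ± 908 in vehicle tumours (mean ± SD, n = 5 each). Its averaged letrozole difference was -0.34 ± 0.15 (SE) and did not pass the threshold (adjusted p = 0.164 in limma). Another pseudogene, Hist1h2aj, averaged 36.1 normalised counts over the 20 tumours.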
